A study of Schizosaccharomyces pombe with 2 samples.

Results

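The genes described here are those whose name on the array was one of the prefixes meu, mug, spo, mde, rec, mcp, spn, dmc or crs followed directly by a number, names that fission yeast geneticists gave mostly to genes of meiosis and spore formation. The rule found 19 of 4956 gene features, the same on both arrays, and each was printed as 2 spots per array. They were dmc1, mde7, meu13, meu14, rec6, rec7, rec8, rec10, rec11, rec12, rec14, rec15, spn1 to spn5, spo4 and spo14. No name with mug, mcp or crs was among them, since the array carries most such genes under their systematic names. The rule used names alone and no measured value.

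Fission yeast (Schizosaccharomyces pombe) lacking, as the D of the label Tup11,12D is read here, both transcriptional corepressor genes tup11 and tup12 was compared with a strain labelled WT. Both were in logarithmic growth in rich medium, and for the mutant of array 1 the label adds YES medium and 30 degrees. RNA of both strains was labelled with Cy3 and Cy5 and hybridised together to 2 spotted arrays with the dyes swapped. Independent RNA was prepared for each array, giving n = 2 throughout. The labels give no mating type or other marker of the strains, and name no starvation or mating. For both arrays the first channel of the scanner table was taken to hold the mutant; the headers name no strain, so the direction is likely rather than certain, and the opposite reading would turn every sign below.

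Meiosis in fission yeast normally starts when cells of opposite mating type mate after nitrogen starvation. Programmed DNA breaks are then made and repaired by recombination, chromosomes are held by meiotic cohesins, and after both divisions each nucleus is enclosed in a forespore membrane that becomes the spore. Transcripts of many meiotic genes are kept low in dividing cells, both by lack of their transcription factors and by an RNA elimination system built around the protein Mmi1.

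On the spot intensities, the median background-subtracted signal of a gene feature was 1338 in the mutant and 3956 in the wild type on array 1, and 1959 and 1432 on array 2. Precision is limited throughout by having 2 arrays. The feature tup1, whose name matched no gene of the table used here, was measured at -2.37 and -1.86 (mean log2 ratio -2.11 ± 0.36, SD, n = 2, limma adjusted p = 0.000446). The feature of tup11 stood at 0.95 on array 1 and -0.11 on array 2 (limma adjusted p = 0.489), and where its probe lies in the gene was not given, so deletion was not checked here.

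None of the genes chosen by array name was called different between the strains in limma at an adjusted p of 0.05. Of the 19, 18 could be tested, and 0 were called, against 3.35% of all 4813 tested features (2.37% higher and 0.977% lower in the mutant). At an unadjusted p under 0.05 there were 2, spo4 and spn3, or 11.1% of the members tested, against 16.1% of all features. No member reached 2-fold in 1 direction on both arrays, where 1.89% of all features did. The mean log2 ratios of the 18 ran from -0.49 (spn3) to 0.51 (spo4), with a median of -0.02 beside 0.01 over all tested features. Of the 18, 5 were above zero on both arrays, 6 were below zero on both and 7 changed sign between the arrays. The corresponding shares were 27.8% and 33.3%, against 30.1% and 29.6% of all features. The 95% limma interval lay within 2-fold in both directions for 17 of the 18, the exception being mde7, and for 87.3% of all tested features. The 17 include 4 members whose signal, as described below, exceeded the bacterial control spots in no channel. Of all tested features without such signal, 91.7% lay within 2-fold too. An interval within 2-fold therefore does not by itself show an unchanged level.

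**Figure D1:**
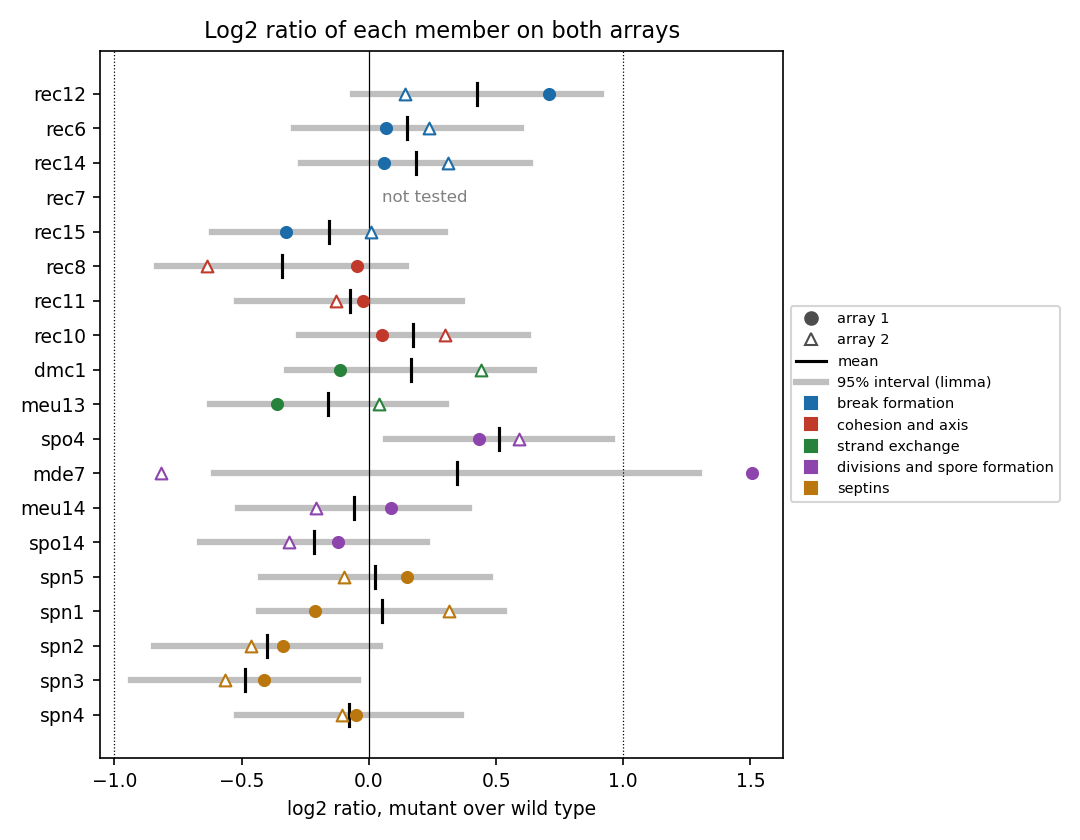
Log2 ratio of mutant over wild type (horizontal axis) for each member (vertical axis), with array 1 as filled circles, array 2 as open triangles, the mean of both as a black bar, the limma 95% interval as a grey line and dotted lines at 2-fold; colours mark the role groups. All means lie between -0.49 and 0.51, mde7 is the member whose arrays are farthest apart, and rec7 was not tested.

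Whether a gene gave a signal at all was judged against spots of bacterial DNA (aceF and kdtA, 96 spots in all), which should bind no yeast cDNA. The level to exceed was the 95th percentile of their background-subtracted signals in the same channel, which was 442 for the mutant and 1659 for the wild type on array 1, and 1076.5 and 488 on array 2. By the mean of their spots, 15 of the 19 members exceeded it in the mutant and 13 in the wild type on array 1, and 10 and 12 did so on array 2. These were 78.9% and 68.4% on array 1, against 76.5% and 82.8% of all gene features. On array 2 they were 52.6% and 63.2%, against 71.9% and 77.6%. The means took in spots with the scanner quality code 3, which the ratios left out. In all 4 channels 9 members passed (47.4%, against 65.7% of all gene features), and 4 passed in none (21.1% against 12.0%). The latter count depends on the level: 7 members passed in no channel against the 99th percentile, 10 against the highest control spot and 8 where every spot had to pass. The 9 were dmc1, meu13, rec7, rec14, spn1, spn3, spn4, spo4 and spo14, and the 4 were meu14, rec6, rec15 and spn5. The remaining 6 passed in some channels, and rec10, rec11 and mde7 did so on array 1 alone. By strain, 10 members passed in the mutant on both arrays and 11 in the wild type on both, beside 3349 and 3658 of all 4956 gene features. Passing shows signal above these controls and does not show that all of it came from the named gene, since spots of a further bacterial gene, tufA, had medians above the level on array 1 (554 in the mutant and 1930 in the wild type), though below it on array 2 (761 and 297).

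Of the 6 members known to act in vegetative cells (rec14, spo14 and spn1 to spn4), 5 passed in all 4 channels and the sixth, spn2, in 3 of them. Of the 13 others, whose known work is in meiosis or spore formation, 4 passed in all channels and 4 in none. The median log2 ratio was -0.15 over those 6 and 0.09 over the 12 others that were tested.

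**Figure D2:**
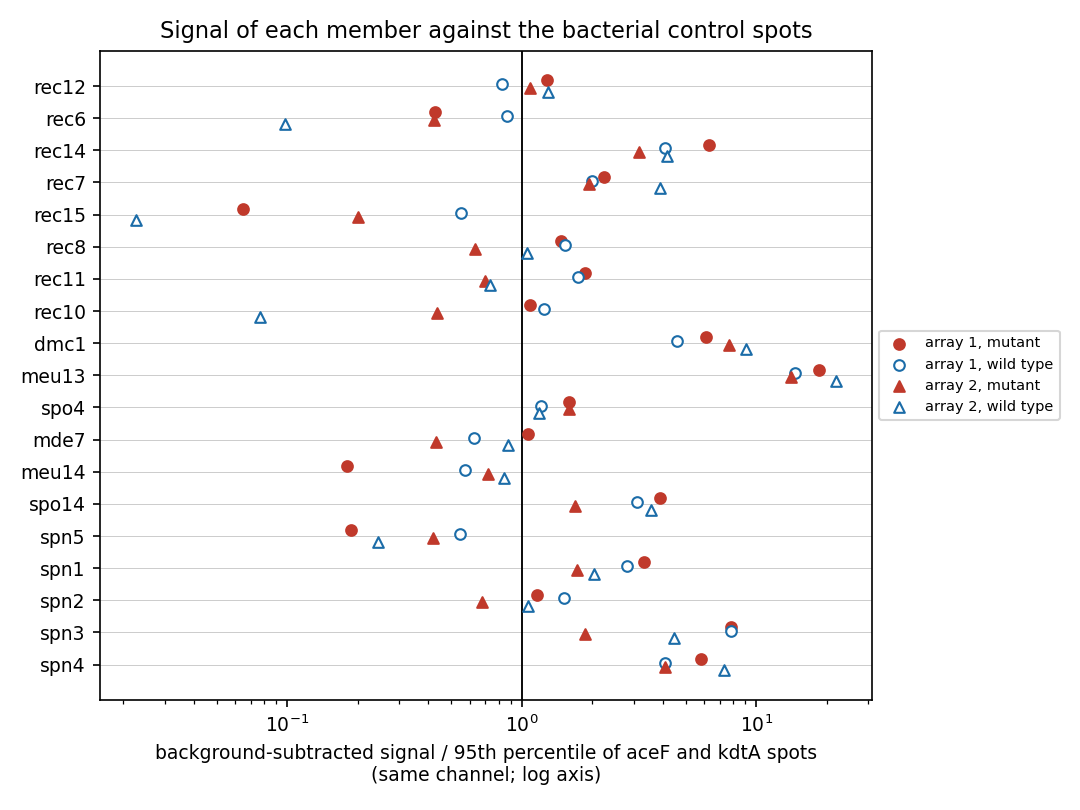
Background-subtracted signal of each member divided by the 95th percentile of the aceF and kdtA spots of the same channel (horizontal log axis; the line at 1 is the level to exceed), with circles for array 1, triangles for array 2, filled red for the mutant and open blue for the wild type. The signals of meu13 are 18.5 and 14.6 times the control level on array 1, while meu14, rec6, rec15 and spn5 lie under 1 in all channels.

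Among the genes for making meiotic DNA breaks, 4 of 5 could be tested and none was called. The gene rec12 encodes the fission yeast counterpart of Spo11, the protein that cuts the DNA. Its log2 ratio was 0.71 on array 1 and 0.14 on array 2, a mean of 0.42 ± 0.40 (limma adjusted p = 0.386). Both arrays lay on the side of the mutant, but the 2 spots of array 1 were 0.70 apart, about as far as that array's ratio lay from zero. Its signal was near the control level, at 1.29 and 0.823 times that level in the mutant and the wild type on array 1 and at 1.08 and 1.29 times on array 2.

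Rec6 and Rec14 work with Rec12 in the core of the break-forming machinery. The gene rec14, whose product corresponds to the RNA-decay cofactor Ski8 and is also used outside meiosis, stood at 0.06 and 0.31 on arrays 1 and 2 (mean 0.18 ± 0.18, limma adjusted p = 0.732). Its spots agreed to within 0.06 and 0.10 and its signals were 3.15 to 6.28 times the control level, so its ratio was among the better measured. The gene rec6 gave 0.07 and 0.24, but its signals were 0.0978 to 0.866 times the control level, and no fold is given.

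Rec7 and Rec15 belong to a second group of proteins needed for the breaks. The gene rec15 was at -0.33 on array 1 and 0.01 on array 2 with signals at 0.0225 to 0.55 times the control level, so neither strain gave a level. The gene rec7 exceeded the controls in all 4 channels, at 2.24, 2.0, 1.94 and 3.90 times, yet had no tested value because both of its spots on array 1 carried the scanner quality code 3. With such spots kept it stood at -0.02 and -0.20 (mean -0.11 ± 0.13, limma adjusted p = 0.849).

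The genes of meiotic cohesion and the chromosome axis gave dim signals. Rec8 is the meiotic cohesin subunit that replaces Rad21, and its transcript is one of those removed by the Mmi1 system in dividing cells. The gene rec8 was at -0.05 on array 1 and -0.64 on array 2 (mean -0.34 ± 0.42, limma adjusted p = 0.505). The lower value of array 2 came from 1 of its 2 spots, since the spots were 1.66 apart there and 0.07 apart on array 1. In the mutant its signal passed the controls on array 1 and not on array 2, at 1.47 and 0.629 times the level, and in the wild type it passed on both, at 1.54 and 1.05 times.

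Rec11 is the cohesin subunit that joins Rec8 along chromosome arms, and Rec10 is a main component of the linear elements, the structures along meiotic chromosomes of this yeast. The gene rec11 was at -0.02 and -0.13 (mean -0.08 ± 0.08, limma adjusted p = 0.891), with both strains above the controls on array 1 and neither on array 2. The gene rec10 was at 0.05 and 0.30 (mean 0.17 ± 0.17, limma adjusted p = 0.74) with the same split between the arrays. For both genes the array 2 ratio therefore rests on mean signals under the control level. No array 2 spot of rec10 passed in either strain. Of the rec11 spots on array 2, 1 passed, at 1244 in the mutant and 586.5 in the wild type. The other did not, at 261 and 125.

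The strand-exchange genes were measured well above the controls in both strains, and neither was called. Dmc1 is a meiosis-specific strand-exchange protein that pairs a broken DNA end with the homologous chromosome. The gene dmc1 stood at -0.11 on array 1 and 0.44 on array 2 (mean 0.16 ± 0.39, limma adjusted p = 0.773), with signals of 4.59 to 9.07 times the control level. Meu13 is the fission yeast counterpart of Hop2, which assists Dmc1. The gene meu13 was at -0.36 and 0.04 (mean -0.16 ± 0.28, limma adjusted p = 0.768), and its spots agreed to within 0.04 on array 1 and 0.26 on array 2. Both genes thus changed sign between the arrays.

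Of the genes for the meiotic divisions and spore formation, spo4 had the highest mean of all members. It encodes a kinase related to Hsk1, the Cdc7-type kinase, and is needed for the second meiotic division. The gene was at 0.43 on array 1 and 0.59 on array 2 (mean 0.51 ± 0.11), or 1.42-fold higher in the mutant. Its unadjusted limma p was 0.0286 and its adjusted p 0.243, so it was not called, and it ranked 315 of the 4813 tested features from the highest mean. By the mean of both spots its signals lay just over the control level. They were at 1.59 and 1.58 times in the mutant and 1.21 and 1.18 times in the wild type. The value of array 2 rests on 1 spot, as the other carried code 3. In the wild type the spot used read 417, under the level of 488, while the code 3 spot read 736.5. With the code 3 spot kept the mean was 0.55 ± 0.17 (limma adjusted p = 0.166).

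The gene spo14 encodes a protein of the Sec12 type that starts vesicle transport from the endoplasmic reticulum, which spores need to build their membrane and vegetative cells need too. It stood at -0.12 and -0.31 (mean -0.22 ± 0.14, limma adjusted p = 0.669) with signals of 1.69 to 3.87 times the control level. The gene meu14, whose product lines the leading edge of the growing forespore membrane, was at 0.09 and -0.21 and exceeded the controls in no channel. The gene mde7, which encodes an RNA-binding protein and takes its name from dependence on the meiotic transcription factor Mei4, was at 1.51 on array 1 and -0.82 on array 2 (limma adjusted p = 0.756). Its spots were 1.89 apart on each array, and its signal passed in the mutant channel of array 1 alone, at 1.07 times the control level, so no fold is given.

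The septins, filament-forming proteins, are in this set through the prefix spn. Spn1 to Spn4 form the ring at the division site of vegetative cells, and Spn5 is a septin of sporulating cells that works with Spn2 at the forespore membrane. The gene spn3 had the lowest mean of all members, at -0.41 and -0.57 (mean -0.49 ± 0.11), or 1.40-fold lower in the mutant, with an unadjusted limma p of 0.0344 and an adjusted p of 0.265. Its signals were 1.85 to 7.84 times the control level, and its spots were 0.65 and 0.77 apart on the arrays, more than the mean ratio. The gene spn2 was also below zero on both arrays, at -0.34 and -0.47 (mean -0.40 ± 0.09, limma adjusted p = 0.366), and its mutant signal passed the controls on array 1 alone.

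The other septin genes gave means near zero. The gene spn4 was at -0.05 and -0.10 (mean -0.08 ± 0.04, limma adjusted p = 0.89), with signals of 4.10 to 7.29 times the control level. The gene spn1 was at -0.21 and 0.31 (mean 0.05 ± 0.37, limma adjusted p = 0.943). The gene spn5 was at 0.15 and -0.10 and exceeded the controls in no channel, whereas spn1, spn3 and spn4 exceeded them in all. By annotation, 17 of the 19 members overlap another gene, mostly a non-coding RNA. The share over all features was not computed, so this count does not set the members apart. A protein-coding gene overlaps rec10 (zip1), spn2 (moc3), spn3 (SPBC16A3.02C), mde7 (SPCC320.06) and rec15 (SPBC1711.15C). Since the place of the probes was not given, signal from an overlapping gene cannot be told apart.

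The spread between the arrays in these genes was of similar size to that of all features. The median SD of the 2 arrays was 0.18 over the tested members and 0.21 over all features. Across the 18 members, which share both arrays, the log2 ratios of array 1 and array 2 had a Pearson correlation of -0.15, against 0.55 over all 4813 features, a description without a test. Among the 8 tested members above the controls in all 4 channels it was 0.66, beside 0.59 over all features of that class. The 18 also hold dim members, among them mde7, whose arrays lay farthest apart (1.51 and -0.82). How much mde7 or the other dim members lowered the correlation was not tested. RNA came from whole cultures, in which a few cells with a high level and many cells with a low one cannot be told apart.

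Genes of meiosis and sporulation outside the name prefixes, taken from a list by role, gave 63 features, all tested. The list was chosen with earlier results of these data known, so its share of calls is a description and not independent support. Of these 3 rose, or 4.76%, and none fell, beside 2.37% and 0.977% of all features, with a median of 0.07. On the authors' deposited values none of the list was called, where 10 features of the whole array were. The 3 that rose were mei2, ste11 and isp3. Of these, mei2 encodes the RNA-binding protein that drives entry into meiosis (2.79 and 2.79 on the arrays). The second, ste11, encodes the transcription factor for mating and early meiosis (0.91 and 0.97, 1.92-fold, limma adjusted p = 0.0336), and isp3 encodes a spore coat protein. The gene isp3 stood at 3.27 and 2.10 (limma adjusted p = 0.000455). Its wild-type signal passed the controls on neither array, so its fold is given as an approximate lower bound of 2.98. The regulators of the list held 2 of the 3 calls and its spore wall genes 1; differences between its role groups were not tested.

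**Figure D3:**
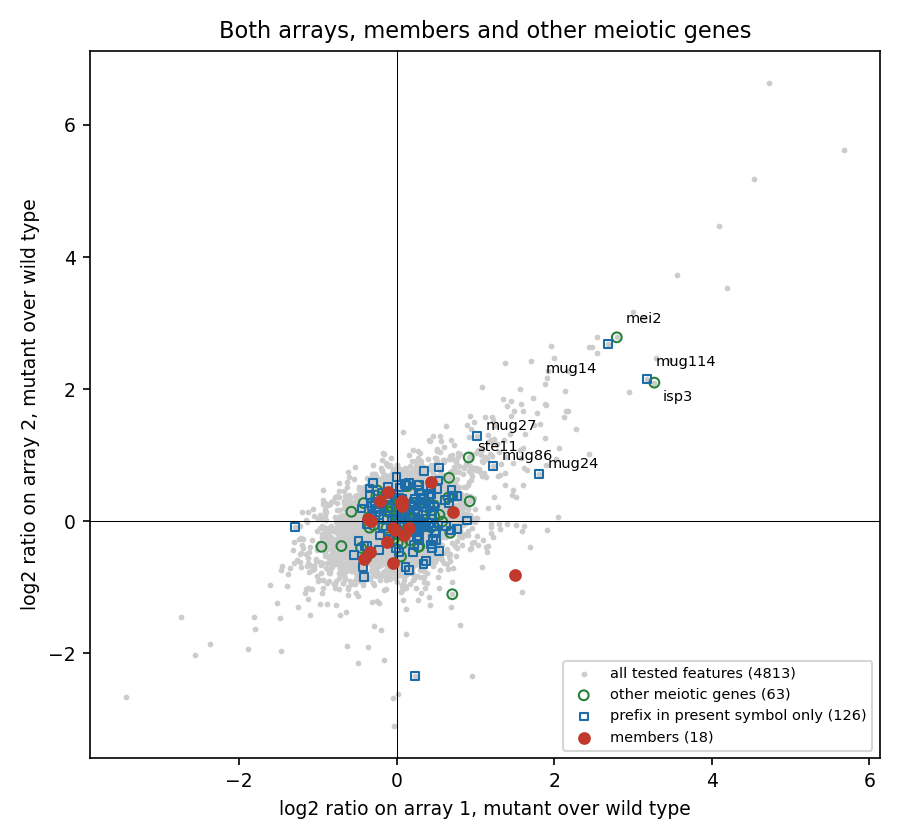
Log2 ratio on array 1 (horizontal) against array 2 (vertical) for all 4813 tested features in grey, the 18 tested members in red, 63 other meiotic genes as green circles and 126 genes that carry a prefix in their present symbol only as blue squares; called genes of the last 2 lists are named. The members lie around zero, with mde7 at 1.51 and -0.82, while mei2, isp3, mug14 and mug114 lie above 2 on both axes.

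The present gene table gives one of the prefixes to 161 symbols, and 127 features on the array belong to such genes under another name, mostly the systematic one. They were added after the data had been seen, and all such genes were taken. Of 126 tested, 5 rose, or 3.97%, and none fell, beside 2.37% and 0.977% of all features, with a median of 0.14. The calls numbered 2 with median centring, 2 with plain background subtraction and 0 on the authors' deposited values. All 5 were mug genes, named for transcripts that increase in meiosis. Of the 126 tested, 84 were mug genes, and 5.95% of these 84 rose. The gene mug14 stood at 2.68 and 2.68 on the arrays. Its wild type did not pass the controls, so its fold is given as an approximate lower bound of 5.32. The gene mug114 stood at 3.18 and 2.15 (6.34-fold, with the wild type above the controls on 1 array). The gene mug27, which encodes a kinase of spore formation, rose 2.23-fold, again with the wild type above the controls on 1 array, and mug86, which encodes a protein of the acetate transporter family, rose 2.04-fold. The gene mug24 stood at 1.81 and 0.71. Its mutant was above the controls on 1 array only and its wild type on neither, so no fold is given.

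Over the 84 mug genes tested, 44 were above zero on both arrays and 8 below zero on both, or 52.4% and 9.52%, against 30.1% and 29.6% of all features. Their median was 0.15. The share above zero on both was 53.1% among the 32 mug genes above the controls in all 4 channels and 52.0% among the 25 above them in none, against 32.9% and 32.4% of all features in those classes. With median centring in place of loess, however, the mug genes had a median of -0.04 and 22.6% above zero on both arrays, against 20.2% of all features. The members showed no such excess, with 27.8% above zero on both, but the difference between the sets was not tested.

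**Figure D4:**
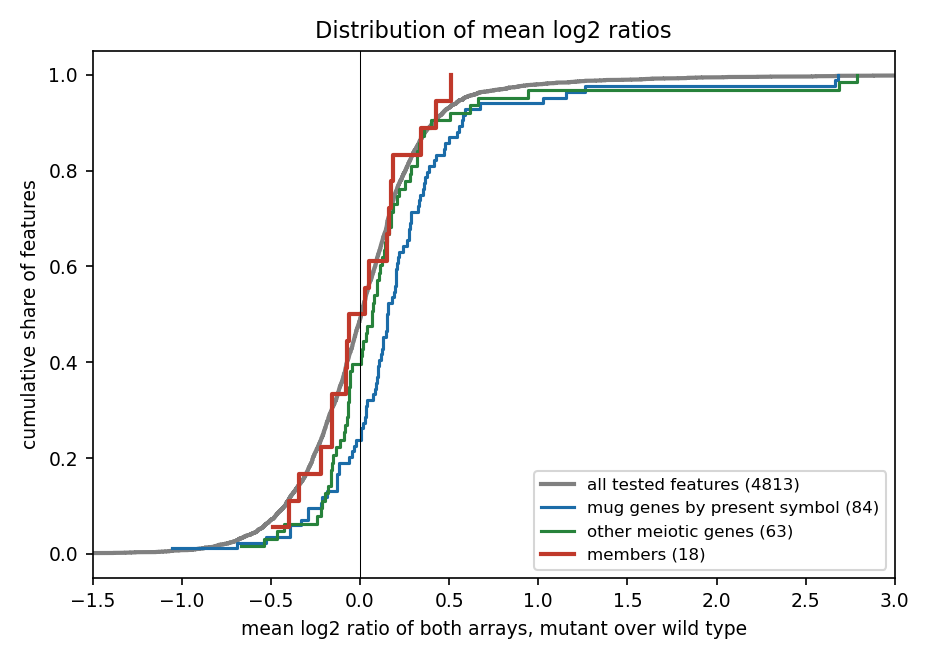
Cumulative share of features (vertical) by mean log2 ratio of mutant over wild type (horizontal) for the 18 tested members, 63 other meiotic genes, 84 mug genes by present symbol and all 4813 tested features, 17 of which lie outside the plotted range. The line of the members follows that of all features and ends at 0.51, while the line of the mug genes lies to its right, with a median of 0.15.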

How the data were processed

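Spot intensities of both channels, with local background, are the values in the authors' deposited scanner tables, per the file headers, on a linear scale. The quality score of 0, 2 or 3 per spot and channel is also theirs, per the file headers, but neither its meaning nor the image software is explained there. The authors also deposited normalised log ratios, read here as log10 of the first over the second channel (r = 0.73 on array 1 and 0.87 on array 2 with the scanner signals of gene spots above the controls); Lowess per array is stated in the series design text.

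Background was removed from the median signals by normexp with an offset of 50, which draws ratios of dim spots toward zero, and each array was normalised by a single loess curve that gave control spots and code 3 spots weight 0. After code 3 spots had been dropped, the spots of each feature were averaged, and features lacking a value on either array were not tested. Log2 ratios were fitted over all 4813 features with limma 3.58.1 in R 4.3.3 and adjusted by Benjamini-Hochberg. With 1 residual degree of freedom, out of 9.547 in all, most of the error is the spread pooled over genes. The arrays come from separate RNA preparations, per the series design text, and the p-values measure the spread between them.

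Where a strain passed the controls on neither array, its fold is an approximate lower bound: after loess and Aquantile, the dim strain was given its own level or the lowest level of any gene spot that passed, whichever was higher. Other passing spots had higher levels, so this bound is not a guaranteed minimum. Array names were looked up in RefSeq's ASM294v3 table (3467 by systematic name, 944 by symbol, 366 by synonym, 179 unmatched). All 19 members were named in the text, by a rule that took every called gene, the 10 highest and 10 lowest means and every member with a prefix other than meu or mug. The rule for the members reads names alone, but that rule, the lists and the role groups were chosen with earlier results of these data known. Promoter motifs were planned and not analysed here.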

Additional observations from a re-analysis of the deposited data

Results flagged for a closer look

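The gene rec7 gave a signal above the bacterial controls in 4 of 4 channels although it entered no test. Both of its array 1 spots carried code 3 in the wild-type channel, where their background-subtracted signals were 2571 and 4052.5, and its array 2 spots gave log2 ratios of -0.52 and 0.11.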

How the results depend on the processing

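No member was called under any of the 11 settings run with a test, and 11 of the 18 kept one sign in all of them; rec6, rec11, rec15, meu14, mde7, spn1 and spn5 did not. The lowest adjusted p was that of mde7 without background correction (0.092). The members' median log2 ratio was 0.028 with print-tip loess, -0.0252 with median centring, -0.0274 with plain background subtraction, 0.0485 without background correction, 0.0218 with a normexp offset of 0, 0.034 with mean signals, -0.0593 with code 3 spots kept, -0.11 on the authors' deposited values and -0.0498 on those without spots at their floor. Leaving out a replicate gave -0.0443 to -0.0353. The count of all features called, 161, became 365 with print-tip loess, 38 with median centring, 60 with plain subtraction, 341 without background correction, 366 with mean signals, 259 with code 3 spots kept, 274 with a variance trend, 10 on the deposited values and 0 on those without floored spots. Of the other meiotic genes 3 were called, and 6 with print-tip loess, 5 without background correction and 0 on either form of the deposited values. Of the genes with a prefix in their present symbol 5 were called, and 2 with median centring, 2 with plain subtraction, 9 with mean signals and 0 on either form of the deposited values. Of the mug genes 44 were above zero on both arrays, and 19 with median centring. Members above the controls in all 4 channels numbered 9, and 5 against the highest control spot, with 4 and 10 in no channel. The present-symbol list and the deposited values without floored spots were chosen after seeing the data. The causes of these changes were not tested. No paired analysis was possible because each array gives 1 ratio of a single comparison, and a dye or slide term could not be fitted to 2 arrays. The signal over the bacterial controls limits the ratios of the 10 members that did not pass in every channel, and the array 2 ratio of spo4.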
